A study of Mus musculus with 14 samples.

Results

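The vascular coagulation and fibrinolysis genes described here were 9 genes: Thbd, Vwf, Plat, Plau, Plaur, Procr, Tfpi, F3 and Nos3. They were taken by name from a table of read counts for 54532 genes in mouse heart, and all 9 were among the 16034 genes with enough counts to be tested. RNA of whole cardiac tissue from 14 male wild-type C57BL/6J mice was sequenced, with 1 library per mouse. All 14, controls included, are listed as 8 weeks old, and so are those collected at the later time. The irradiated mice had received 30 Gy of 60Co γ-rays to the anterior chest at 8 weeks of age, under anesthesia and with the rest of the body behind lead. Hearts were collected 1 day later from 3 irradiated mice (IRR_1d) and 3 control mice (Control_1d), and 6 weeks later from 4 irradiated mice (IRR_6w) and 4 control mice (Control_6w). Whether the controls were anesthetized is not given in the sources used here. The comparisons ask how these genes differ with irradiation at the acute and at the late time.

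The vessel wall keeps blood fluid and seals leaks. Tissue factor, the product of F3, starts coagulation when blood meets cells below the endothelium, and the inhibitor encoded by Tfpi blocks that start. Thrombomodulin (Thbd) and the endothelial protein C receptor (Procr) sit on the endothelial surface and turn thrombin towards activating the anticoagulant protein C. Von Willebrand factor (Vwf), stored in endothelial cells and platelets, tethers platelets and carries factor VIII, while nitric oxide from the enzyme encoded by Nos3 relaxes vessels and restrains platelets. Clots are dissolved by plasmin, which is made from plasminogen by the activators encoded by Plat (tissue type) and Plau (urokinase type). Plaur encodes the cell surface receptor of urokinase.

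Counts per library ranged from 13336746 to 16837265. Levels are given as CPM, the count scaled to a common library size. Of the genes at 2 to 5 CPM in the other libraries, 32.3% had 0 counts in Control_1d replicate 1, 22.6% in IRR_6w replicate 3, 9.36% in IRR_6w replicate 4 and at most 2.22% in the other libraries. Cardiomyocyte markers were present in every library, with a summed level of 4110 to 37500 CPM. The libraries also differed in markers of neighbouring tissue. In Control_6w replicate 3 the 10 thymus markers summed to 4040 CPM, against at most 52.0 elsewhere, and the 14 endothelial markers to 915 CPM, against 1910 to 2860 elsewhere. IRR_6w replicate 1 held 519 CPM of lung epithelium markers, against at most 35.9 elsewhere, and 2840 CPM of the 5 atrial markers. The next highest atrial sum was 1940 CPM in IRR_1d replicate 3, and the other libraries had at most 535 CPM. Fat markers were high in the same 3 libraries, with 761 CPM of brown fat and 453 CPM of white fat markers in Control_6w replicate 3, 1080 and 1890 CPM in IRR_6w replicate 1, and 369 and 440 CPM in IRR_1d replicate 3, against at most 30.9 and 57.3 CPM elsewhere. Testis germ cell markers summed to 60.7 to 69.0 CPM in Control_6w replicates 1 to 3 and to at most 0.361 CPM elsewhere. Control_6w replicate 3 was the lowest library of its group for 8 of the 9 genes and the lowest of all libraries for 7, so the results of the 9 genes at 6 weeks are given with and without it.

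Per length of transcript, the thrombin cofactor Thbd was the highest of the 9 genes in cardiac tissue. The mean of the group means, in FPKM (the CPM divided by the deposited gene length in kilobases), was 36.4 for Thbd, 16.8 for Tfpi, 11.1 for Vwf, 10.4 for Plau, 7.73 for F3, 7.47 for Nos3, 6.65 for Plat, 1.27 for Plaur and 1.16 for Procr. Thbd lay above Tfpi in all 14 libraries, and Plat lay above Plaur in all 14. Tfpi exceeded Vwf in 11 libraries and Nos3 exceeded Plat in 10. The other neighbours in this order were not separated, since Vwf exceeded Plau in 8 libraries, Plau exceeded F3 in 6, F3 exceeded Nos3 in 6 and Plaur exceeded Procr in 7. All levels below are CPM after TMM scaling, which sets library sizes so that most genes agree between libraries.

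**Figure D1:**
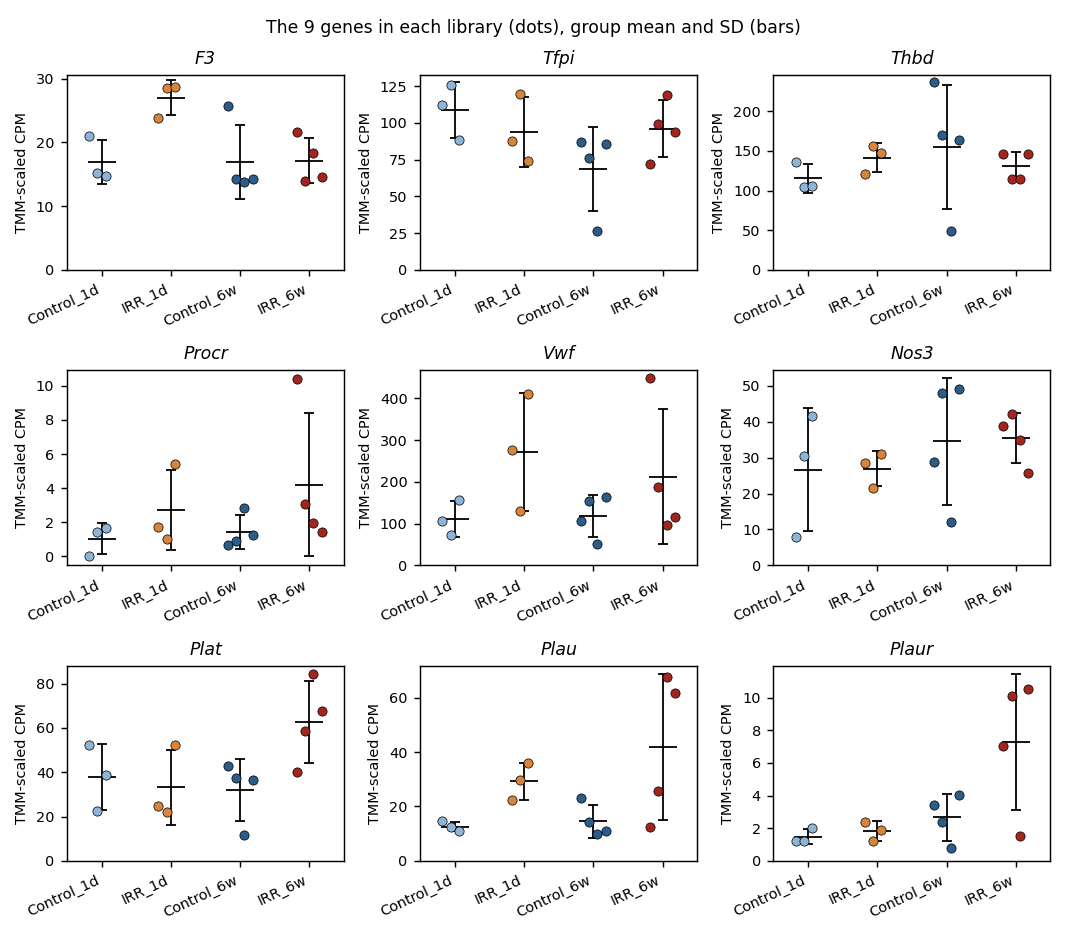
Level of each gene in TMM-scaled CPM (vertical axis, from 0 or just below) in each of the 14 libraries (dots), by group (horizontal axis), with the group mean and SD (bars). F3 and Plau in IRR_1d lie above all Control_1d libraries. Vwf and Procr each have 1 far higher library in IRR_6w, while Plat, Plau and Plaur reach 84.5, 67.6 and 10.5 CPM there.

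With irradiation, no gene of the 9 passed the threshold in edgeR's quasi-likelihood test, which asks for a fold change above 2 or below 0.5 and an adjusted p under 0.05 over all genes. At 1 day 0 of the 9 genes were called, where 0.0249% of all genes tested were called. At 6 weeks 0 of 9 were called, where 0.256% of all genes were called. DESeq2 on all libraries called 0 of 9 at 1 day, where it called 0.191% of the genes to which it gave an adjusted p, and 1 of 9 at 6 weeks, Plau, where it called 2.11%. limma-voom called 0 of 9 at both times, against 0.0% and 0.112% of all genes. At an unadjusted p under 0.05, 3 of the 9 genes were higher at 1 day (Vwf, Plau and F3), where 1.94% of all genes were higher by that measure, and 3 of 9 were higher at 6 weeks (Plat, Plau and Plaur), where 5.43% of all genes were. None of the 9 was lower at that level, where 0.96% of all genes were at 1 day and 3.37% at 6 weeks. The 6 week counts depend on Control_6w replicate 3. Without it Plat and Plaur no longer had an unadjusted p under 0.05 in edgeR, and Thbd was lower at that level, as given below. With the fold limits and an unadjusted p, 2 of 9 passed at 1 day (Vwf and Plau, against 2.23% of all genes) and 2 of 9 at 6 weeks (Plau and Plaur, against 5.43%). The median log2 fold change of the 9 genes was 0.32 at 1 day, against 0.062 for all genes tested, and 0.84 at 6 weeks, against -0.089. These counts describe the genes, and with 3 or 4 mice a group an undetected difference is not an absent one.

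**Figure D2:**
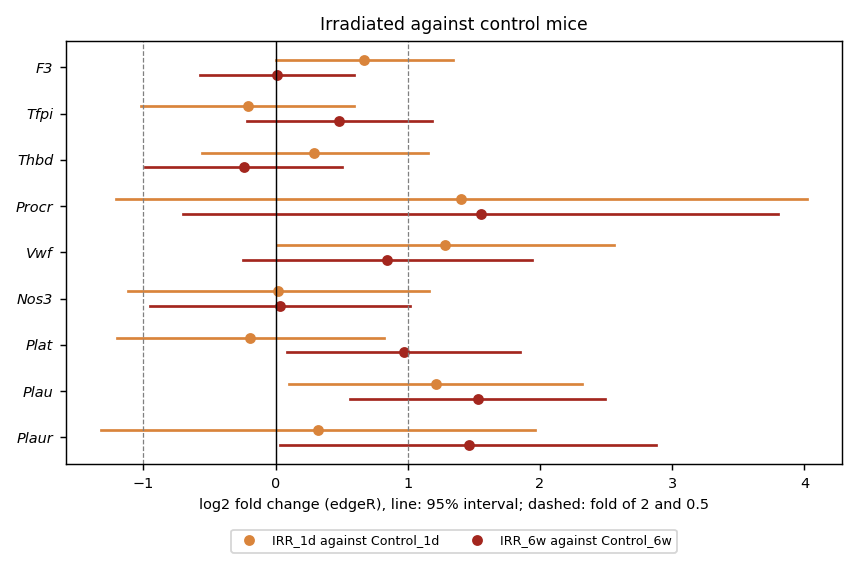
Log2 fold change of irradiated against control mice (horizontal axis, points) with its 95% interval (lines) for each gene, at 1 day and at 6 weeks. The dashed lines mark fold changes of 2 and 0.5. The interval of Plau lies above 0 at both times, from 0.56 to 2.49 at 6 weeks, and the intervals of Thbd and Nos3 include 0 at both.

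F3 (ENSMUSG00000028128, mm10 chromosome 3, 121723537 to 121735048) encodes tissue factor, the starter of coagulation. It measured 15.2, 14.7 and 21.0 CPM in Control_1d and 23.9, 28.5 and 28.7 CPM in IRR_1d. All irradiated mice of the 1 day time point were thus above all their controls. The means were 27.1 ± 2.70 (SD, n = 3) and 16.9 ± 3.49 CPM (SD, n = 3), a log2 fold change of 0.67 (SE 0.313, 95% interval 0.0034 to 1.34, edgeR adjusted p = 1, unadjusted p = 0.049). Without single libraries of these groups the edgeR log2 fold change was between 0.61 and 0.86, and over all 25 alternatives the unadjusted p ran from 0.0254 to 0.114. At 6 weeks F3 measured 25.7, 14.2, 13.8 and 14.3 CPM in the controls and 21.6, 14, 18.4 and 14.6 CPM in the irradiated mice. The 6 week groups overlapped, with a log2 fold change of 0.013 (95% interval -0.57 to 0.59, edgeR adjusted p = 0.993), and -0.075 without Control_6w replicate 3.

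Promoter sequences (RefSeq, build GRCm38.p6, 250 bases before to 50 after the start) were at hand for 4 of the 9 genes: F3, Plaur, Procr and Tfpi. Both strands were searched for the letters of 6 motifs: AP-1 (TGANTCA, in 7.81% of 32851 mouse promoters of the same length), NF-kappaB (GGGNNNTTC, 14%), KLF (CCACCC, 31.5%), Sp1 (GGGCGG, 35.7%), EGR1 (GCGNGGGCG, 5.55%, which can overlap Sp1) and the TATA box (TATAAA, 13.6%). Plaur held 1 AP-1, 1 NF-kappaB, 3 Sp1 and 1 EGR1 match, F3 held 2 AP-1, 2 KLF, 3 Sp1 and 1 TATA box match, and Procr held 1 AP-1 and 1 KLF match. Each of the 2 Tfpi promoters held 1 Sp1 match, and 1 of them also a TATA box match. The AP-1 matches are shown, chosen after the search, because these 3 genes share them and AP-1 was the rarest motif but EGR1. The stretch shown runs from 40 bases before the first match to 40 bases after the last, on the plus strand from 5′ to 3′, with the AP-1 matches in capitals. They start 146 and 135 bases before the start of F3 (chr3:121723351-121723448), 69 bases before that of Plaur (chr7:24462374-24462460) and 154 bases before that of Procr (chr2:155751023-155751109), each counted from the RefSeq start. For Procr that start (155751217) lies inside the deposited gene, and the match is 54 bases before the deposited start. A match describes the letters and is no evidence of binding in these hearts.
F3: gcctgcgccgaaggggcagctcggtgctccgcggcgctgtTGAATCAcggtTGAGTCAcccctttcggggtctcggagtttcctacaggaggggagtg
Plaur: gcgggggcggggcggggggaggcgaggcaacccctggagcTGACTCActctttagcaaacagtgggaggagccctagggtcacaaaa
Procr: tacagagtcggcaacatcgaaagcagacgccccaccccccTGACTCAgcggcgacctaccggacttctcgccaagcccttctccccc

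Tfpi (ENSMUSG00000027082, chromosome 2, 84432855 to 84476775), the inhibitor of the tissue factor pathway, measured 112, 126 and 88.1 CPM in Control_1d and 87.4, 120 and 74.0 CPM in IRR_1d. At 6 weeks it measured 87.0, 76.1, 26.7 and 85.6 CPM in the controls and 71.7, 99.2, 119 and 93.9 CPM in the irradiated mice. Irradiated and control mice overlapped at both times, and the lowest value was that of Control_6w replicate 3. The log2 fold change was -0.21 at 1 day (95% interval -1.02 to 0.59, edgeR adjusted p = 1) and 0.48 at 6 weeks (SE 0.326, 95% interval -0.22 to 1.18, adjusted p = 0.731). The 1 day value ran from -0.40 to -0.065 with single libraries left out. Without Control_6w replicate 3 the 6 week value was 0.21. Tfpi was the only one of the 9 genes whose control groups did not overlap, lower in all 4 Control_6w mice than in all 3 Control_1d mice, as were 2.53% of all genes. That difference was -0.66 on the log2 scale (SE 0.349, with an edgeR adjusted p of 0.902) and -0.40 without Control_6w replicate 3.

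Thbd (ENSMUSG00000074743, chromosome 2, 148404466 to 148408188), the thrombin cofactor of the endothelial surface, measured 136, 104 and 106 CPM in Control_1d and 121, 156 and 147 CPM in IRR_1d. At 6 weeks the controls measured 237, 170, 48.6 and 164 CPM and the irradiated mice 146, 115, 115 and 146 CPM. Apart from Control_6w replicate 3, every control of the later time lay above every irradiated mouse. The log2 fold change was 0.29 at 1 day (95% interval -0.56 to 1.15, edgeR adjusted p = 1) and -0.24 at 6 weeks (SE 0.348, 95% interval -0.99 to 0.50, adjusted p = 0.883). Leaving out Control_6w replicate 3 moved the 6 week value to -0.54 (edgeR adjusted p = 0.338, unadjusted p = 0.0224), and leaving out Control_6w replicate 1 moved it to 0.022.

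Procr (ENSMUSG00000027611, chromosome 2, 155751117 to 155755471), the receptor that presents protein C to thrombin and thrombomodulin, was close to the lower limit of detection. It measured 0, 1.41 and 1.69 CPM in Control_1d and 1.74, 1.03 and 5.41 CPM in IRR_1d. The 0 in Control_1d replicate 1 allows up to 3 counts by counting error alone, and in that library 32.3% of the genes at 2 to 5 CPM elsewhere also had 0 counts. At 6 weeks the controls measured 0.684, 0.917, 2.84 and 1.28 CPM and the irradiated mice 10.4, 3.07, 1.97 and 1.42 CPM. The groups overlapped at both times, and the highest libraries were IRR_6w replicate 1 and IRR_1d replicate 3. The log2 fold change was 1.4 at 1 day (SE 1.22, with an edgeR adjusted p of 1) and 1.55 at 6 weeks (SE 1.05, adjusted p = 0.731). It was 0.43 at 1 day without IRR_1d replicate 3, and at 6 weeks 0.58 without IRR_6w replicate 1 and 2.12 without Control_6w replicate 3.

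Vwf (ENSMUSG00000001930, chromosome 6, 125546774 to 125686679), the platelet tether of endothelial cells, measured 107, 71.5 and 157 CPM in Control_1d and 277, 129 and 411 CPM in IRR_1d. The lowest irradiated mouse lay below the highest control. The log2 fold change at 1 day was 1.28 (SE 0.596, 95% interval 0.0072 to 2.56, edgeR adjusted p = 1, unadjusted p = 0.0489), and it was 0.86 without IRR_1d replicate 3. At 6 weeks Vwf measured 106, 153, 51.8 and 163 CPM in the controls and 448, 187, 97.3 and 116 CPM in the irradiated mice. A single library, IRR_6w replicate 1, held more than any control by a wide margin. The 6 week log2 fold change of 0.84 (SE 0.511, with an edgeR adjusted p of 0.7) was 0.60 without Control_6w replicate 3, 0.18 without IRR_6w replicate 1 and -0.069 without both.

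The libraries with the most Vwf and Procr, IRR_6w replicate 1 and IRR_1d replicate 3, were the highest for markers of several other tissues. The sum of the 5 atrial markers ranged from 11.4 to 1940 CPM in IRR_1d against 18.1 to 535 in Control_1d, and from 9.87 to 2840 in IRR_6w against 13.5 to 333 in Control_6w. Up to 3 of the 5 were at 0 counts in a library. The 11 platelet and megakaryocyte markers also summed highest in these libraries, to 219 CPM in IRR_6w replicate 1 and 193 CPM in IRR_1d replicate 3, against 31.0 to 107 CPM in the other 12. Of the 6 endocardial and venous markers, the sum was 491 and 387 CPM in the same libraries, against 177 to 275 CPM elsewhere. Mesothelium markers were also highest there, at 381 and 208 CPM against 25.5 to 162 CPM elsewhere. Fat markers were high there and in Control_6w replicate 3, as given above. Control_6w replicate 3 had 51.8 CPM of Vwf, the lowest of its group, and 2.84 CPM of Procr, the highest of its group. Control_1d replicate 2, with 535 CPM of atrial markers, had 71.5 CPM of Vwf, the lowest of its group. Its Procr, at 1.41 CPM, lay between those of the other Control_1d libraries. The part of these other cells in the Vwf and Procr values was not tested. In RNA of whole tissue, more cells of a type and more RNA per cell cannot be told apart.

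**Figure D3:**
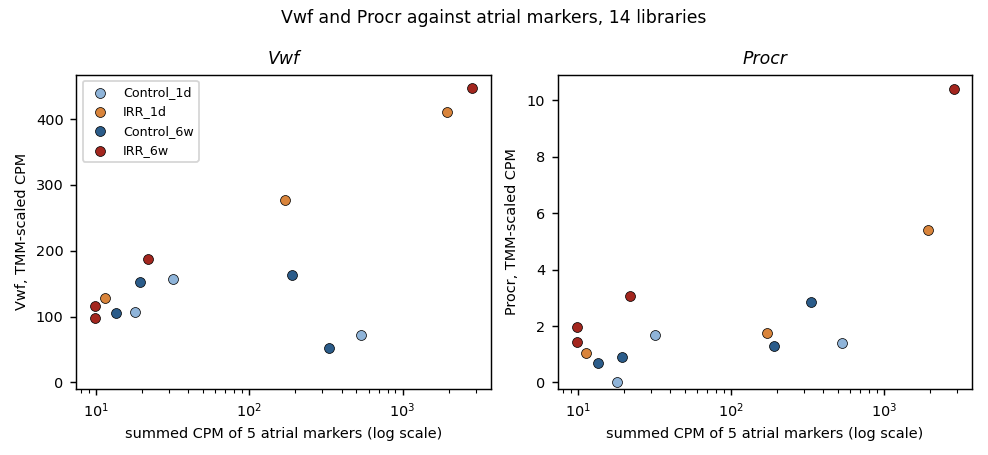
Vwf (left) and Procr (right) in TMM-scaled CPM (vertical axes) against the summed CPM of the 5 atrial markers (horizontal axes, log scale) in the 14 libraries, coloured by group. IRR_6w replicate 1 and IRR_1d replicate 3 lie at the upper right of both plots, with 448 and 411 CPM of Vwf.

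Nos3 (ENSMUSG00000028978, chromosome 5, 24364810 to 24384474), the endothelial nitric oxide synthase, measured 7.83, 30.5 and 41.5 CPM in Control_1d and 28.4, 21.4 and 31.0 CPM in IRR_1d. At 6 weeks it measured 28.9, 48.1, 12.1 and 49.1 CPM in the controls and 38.8, 42.1, 35.0 and 25.8 CPM in the irradiated mice. The irradiated mice lay within the range of their controls at both times. The log2 fold change was 0.021 at 1 day (95% interval -1.12 to 1.16, edgeR adjusted p = 1) and 0.037 at 6 weeks (95% interval -0.95 to 1.02, adjusted p = 0.988). Without Control_6w replicate 3 the 6 week value was -0.25. These intervals still include a doubling and a halving at 1 day and a doubling at 6 weeks. The values of Nos3 are uncertain in another way, since 32.3% of its exon bases overlap Atg9b and the antisense gene Gm15587 on the other strand and the strand setting of the counting is not given in the sources used here. The other 8 genes share no exon bases with another gene of the GENCODE M21 annotation.

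Plat (ENSMUSG00000031538, chromosome 8, 22757727 to 22782844), the tissue plasminogen activator, measured 52.1, 22.6 and 38.8 CPM in Control_1d and 24.8, 22.2 and 52.5 CPM in IRR_1d. The 1 day groups overlapped, and the log2 fold change was -0.19 (95% interval -1.20 to 0.82, edgeR adjusted p = 1). With single libraries left out the 1 day value ran from -0.68 to 0.11, so its direction was not fixed. At 6 weeks Plat measured 42.8, 37.3, 11.7 and 36.5 CPM in the controls and 40.3, 58.7, 84.5 and 67.7 CPM in the irradiated mice. In this comparison 3 of the 4 irradiated mice lay above every control. The means were 62.8 ± 18.4 (SD, n = 4) and 32.1 ± 13.9 CPM (SD, n = 4), a log2 fold change of 0.97 (SE 0.412, 95% interval 0.090 to 1.85, edgeR adjusted p = 0.502, unadjusted p = 0.033). The value was 0.69 without Control_6w replicate 3 (edgeR adjusted p = 0.492, unadjusted p = 0.0731), the smallest of the leave-one-out values.

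Plau (ENSMUSG00000021822, chromosome 14, 20836660 to 20843385), the urokinase, had the smallest p of the 9 genes at both times. It measured 14.5, 12.5 and 10.9 CPM in Control_1d and 22.2, 29.8 and 35.9 CPM in IRR_1d. Each irradiated mouse of the 1 day time point exceeded each control. The means were 29.3 ± 6.86 (SD, n = 3) and 12.6 ± 1.81 CPM (SD, n = 3), a log2 fold change of 1.21 (SE 0.519, 95% interval 0.10 to 2.32, edgeR adjusted p = 1, unadjusted p = 0.0345). F3 and Plau were the 2 of 9 genes that did not overlap and were higher at 1 day, where 6.52% of all genes tested did so.

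At 6 weeks Plau measured 23.0, 14.3, 9.84 and 11 CPM in the controls and 12.3, 25.8, 67.6 and 61.6 CPM in the irradiated mice. IRR_6w replicate 1 lay among the controls and the other 3 irradiated mice lay above all of them. The means were 41.8 ± 27.0 (SD, n = 4) and 14.5 ± 5.97 CPM (SD, n = 4), a log2 fold change of 1.53 (SE 0.452, 95% interval 0.56 to 2.49, edgeR adjusted p = 0.217, unadjusted p = 0.00436). Over 25 alternatives the log2 fold change ran from 1.19 to 1.83 and the adjusted p from 0.0484 to 0.599. Plau passed the threshold in 2 of them, in DESeq2 on all libraries (1.53, adjusted p = 0.0484) and in edgeR without IRR_6w replicate 1 (1.83, adjusted p = 0.0484). The highest values were in IRR_6w replicates 3 and 4, the libraries of that group with the most genes at 0 counts, and the log2 fold change was 1.19 without IRR_6w replicate 3 and 1.38 without Control_6w replicate 3. Macrophage and monocyte markers were also higher at 6 weeks. All 11 had a log2 fold change above 0, 1 of them was called (Ccr2, the receptor that brings monocytes into tissue, 68.2 ± 30.3 against 6.05 ± 1.31 CPM, SD, n = 4, edgeR adjusted p = 0.025), and their sum ranged from 1190 to 1610 CPM in IRR_6w against 283 to 693 in Control_6w, with none at 0 counts. At 1 day the sums were 690 to 816 CPM in IRR_1d and 622 to 864 CPM in Control_1d. Of 8 fibroblast markers 0 were called at either time by edgeR, while DESeq2 on all libraries called 0 at 1 day and 1 at 6 weeks. At an unadjusted p under 0.05, 4 of 8 were higher at 6 weeks, with a median log2 fold change of 0.92, and 1 of 8 at 1 day, with a median of 0.70. Their sum was 3390 to 4260 CPM in IRR_6w against 1410 to 4080 in Control_6w (3310 to 4080 without replicate 3), and 3740 to 6750 CPM in IRR_1d against 3150 to 3900 in Control_1d, with none at 0 counts. Of 8 smooth muscle and pericyte markers, 2 were higher at 1 day at an unadjusted p under 0.05 and 0 at 6 weeks. Their median log2 fold change was 0.86 at 1 day and -0.097 at 6 weeks. Their 1 day sums overlapped, at 1330 to 2480 CPM in IRR_1d and 1610 to 2010 CPM in Control_1d. The part of macrophages, fibroblasts, smooth muscle cells and pericytes in the Plau and F3 values was not tested.

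Plaur (ENSMUSG00000046223, chromosome 7, 24462484 to 24475968), the urokinase receptor, was expressed at a low level. It measured 1.19, 1.21 and 2.0 CPM in Control_1d and 2.38, 1.20 and 1.91 CPM in IRR_1d, with overlapping groups and a log2 fold change of 0.32 (SE 0.768, with an edgeR adjusted p of 1). This 1 day value ran from 0.094 to 0.65 with single libraries left out. At 6 weeks the controls measured 3.42, 2.37, 0.796 and 4.04 CPM and the irradiated mice 7.01, 10.1, 1.52 and 10.5 CPM. All irradiated mice but IRR_6w replicate 3 lay above the controls, so Plaur and Plau did not share their highest library. That library had 24 counts of Plaur, and 22.6% of the genes at 2 to 5 CPM in the other libraries had 0 counts in it. The part of this loss in its low Plaur value was not tested. The means were 7.29 ± 4.15 (SD, n = 4) and 2.66 ± 1.42 CPM (SD, n = 4), a log2 fold change of 1.46 (SE 0.667, 95% interval 0.030 to 2.88, edgeR adjusted p = 0.552, unadjusted p = 0.046). Without Control_6w replicate 3 the log2 fold change was 1.15 (edgeR adjusted p = 0.537, unadjusted p = 0.0965). None of the 9 genes had groups at 6 weeks that did not overlap, where 4.08% of all genes did so in the higher direction and 1.64% in the lower.

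Between the time points, no gene of the 9 was called. Control_6w and Control_1d differed at an unadjusted p under 0.05 in 0 of the 9 genes (edgeR called 0 of 9), where 5.28% of all genes tested did and 0.0% were called. IRR_6w and IRR_1d differed at that level in 2 of 9, where 5.79% of all genes did, and 1 of 9 also passed the fold limits, where 3.85% of all genes did. The share of all genes called was 0.0374%. Plaur was higher at the later time, with a log2 fold change of 1.99 (SE 0.754, with an edgeR adjusted p of 0.749), and F3 was lower, with -0.66 (SE 0.290, adjusted p = 0.83). The levels of F3 in the irradiated groups did not overlap, which 3.84% of all genes also showed in that direction. The change in the irradiation effect from 1 day to 6 weeks, tested as an interaction, was called for 0 of 9 genes (0.0% of all genes), and 0 of 9 had an unadjusted p under 0.05 (3.14% of all genes). The other tools called 0 of 9 in these 3 comparisons as well. DESeq2 with all libraries called 0.128% of genes between controls, 0.969% between irradiated groups and 0.222% for the change in effect, and limma-voom 0.0%, 0.0624% and 0.0%. The largest of these changes were 1.16 for Plat (SE 0.626, 95% interval -0.18 to 2.5, edgeR adjusted p = 0.99) and 1.13 for Plaur (SE 1.01, adjusted p = 0.99).

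Set against each other within a library, in ratios of FPKM, Plau was higher relative to Plat, and Tfpi lower relative to F3, in IRR_1d than in Control_1d. Urokinase over tissue activator (Plau over Plat) was 1.80 to 3.54 in IRR_1d, above the 0.735 to 1.45 of Control_1d, and overlapped at 6 weeks. The inhibitor over tissue factor (Tfpi over F3) was 1.19 to 1.95 in IRR_1d, below the 2.48 to 3.85 of Control_1d, and was 1.54 to 3.27 in IRR_6w against 0.893 to 2.78 in Control_6w. These ratios were chosen with the levels known and were not tested.

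As a share of the summed CPM of the 14 endothelial markers, Plat and Tfpi were the 2 of 9 genes that were higher in IRR_6w without overlap, where 1.83% of all genes were. Plat was 2.08 to 3.29% of that sum in IRR_6w and 1.27 to 1.53% in Control_6w. Tfpi was 3.52 to 4.66% in IRR_6w and 2.66 to 3.12% in Control_6w. On this scale Control_6w replicate 3 was close to its group for these genes, at 1.27% for Plat and 2.92% for Tfpi, but stood above it for Procr (0.311% against 0.0244 to 0.0466%), F3 (1.51% against 0.497 to 0.917%) and Plau (1.08% against 0.400 to 0.822%). Plau was 0.634 to 2.64% in IRR_6w against 0.400 to 1.08% in Control_6w. At 1 day 3 of 9 genes (Vwf, Plau and F3) were higher without overlap, but so were 15.1% of all genes, the endothelial sum itself being 1910 to 2030 CPM in IRR_1d and 2110 to 2560 CPM in Control_1d. Of the 14 endothelial markers 0 were called at either time by edgeR. An unadjusted p under 0.05 was found for 1 higher marker at 1 day and for 2 higher and 2 lower markers at 6 weeks. DESeq2 also called 0 of them. Their median log2 fold change was -0.23 at 1 day, turning to 0.028 without Control_1d replicate 3, and 0.19 at 6 weeks, turning to -0.049 without Control_6w replicate 3 and to -0.0015 without IRR_6w replicate 2. Flt1, a receptor of vascular endothelial growth factor, was called lower at 6 weeks in the 2 alternatives that left out Control_6w replicate 3 and Tek, the receptor of angiopoietins, in 1 of these, their values over 25 alternatives being -1.35 to -0.79 and -1.09 to -0.51.

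**Figure D4:**
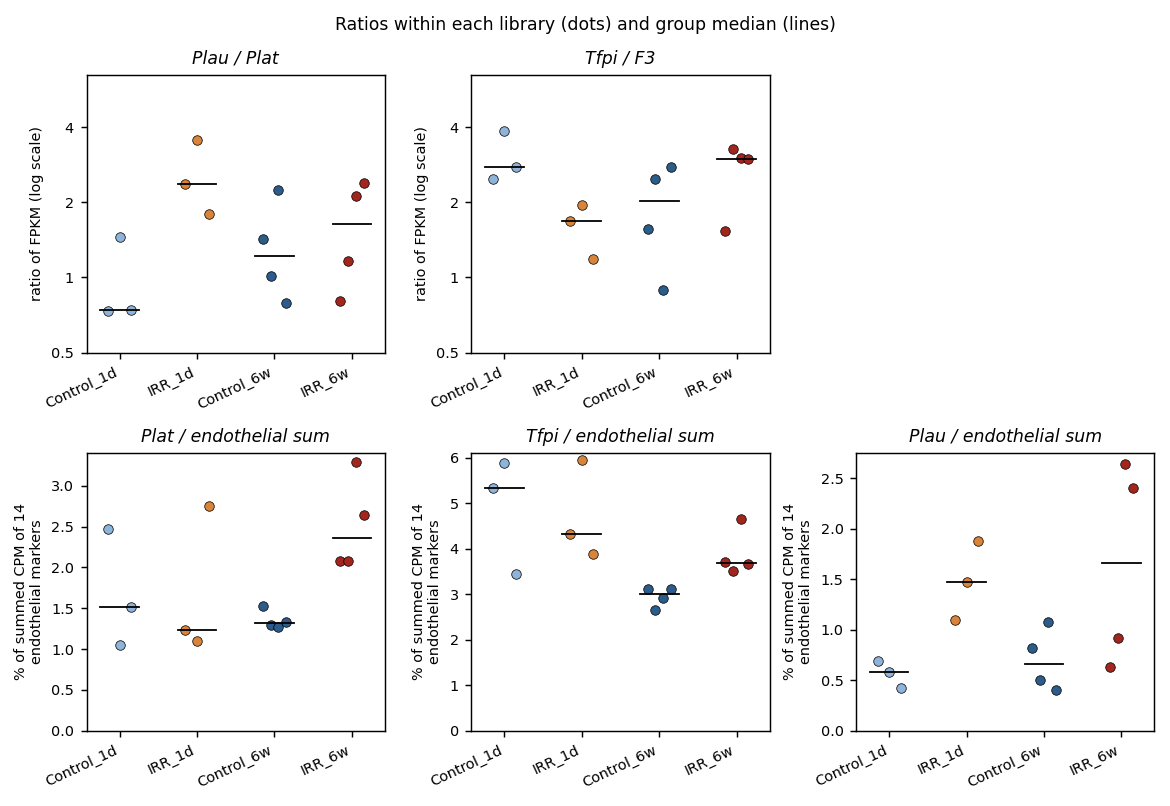
Upper row, ratios of FPKM within each library (vertical axes, log scale), and lower row, CPM of Plat, Tfpi and Plau as a percentage of the summed CPM of 14 endothelial markers (vertical axes, from 0), by group, with dots for libraries and lines for group medians. All IRR_1d libraries lie above all Control_1d libraries for Plau over Plat and below them for Tfpi over F3, and all IRR_6w libraries lie above all Control_6w libraries for Plat and Tfpi over the endothelial sum.

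Among the other listed genes of the plasminogen system that were tested, Serpine2 had the largest log2 fold change at both times. Of 12 genes listed, 6 were tested and 0 were called at either time by edgeR, while DESeq2 on all libraries called 1 at 6 weeks, Serpine2. At an unadjusted p under 0.05, 2 were higher at 1 day and 2 at 6 weeks, and none was lower. Their median log2 fold change was 0.55 at 1 day and 0.39 at 6 weeks, and over the same 6 genes with single libraries left out ran from 0.37 (without Control_1d replicate 1) to 0.83 (without Control_1d replicate 3) at 1 day and from 0.24 (without IRR_6w replicate 2) to 0.53 (without IRR_6w replicate 3) at 6 weeks. Plasminogen itself (Plg) was under the filter, with at most 0.402 CPM in any library, as were Serpinf2, Serpinb2, Cpb2, F12 and Klkb1.

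Serpine2, which encodes a serpin that inhibits urokinase and thrombin, measured 122, 102 and 210 CPM in IRR_1d against 68.6, 41.2 and 37.5 CPM in Control_1d. In IRR_6w it measured 80.2, 87.0, 211 and 146 CPM against 48.9, 38.1, 37.9 and 37.5 CPM in Control_6w. Irradiated mice exceeded controls without overlap at both times, with log2 fold changes of 1.56 (SE 0.396, with an edgeR adjusted p of 0.764) and 1.69 (SE 0.345, adjusted p = 0.061). At 1 day 1 of 25 alternatives called it, DESeq2 on the compared groups alone (adjusted p = 0.0323). At 6 weeks 8 of 25 did, among them both DESeq2 fits and edgeR without Control_1d replicate 1, IRR_1d replicate 3 or IRR_6w replicate 1, with adjusted p from 0.000719 to 0.231. Lrp1, the receptor that clears complexes of activators with serpins, was 478 ± 171 (SD, n = 3) against 208 ± 78.9 CPM (SD, n = 3) at 1 day, a log2 fold change of 1.20 (edgeR adjusted p = 1).

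Of 12 coagulation factors, 4 were tested (F5, F8, F10 and F13a1), and 0 were called by edgeR or by DESeq2 on all libraries. F10 had 0 to 0.605 CPM in every library outside IRR_6w, and 2.7, 0.782, 0.953 and 0 CPM in IRR_6w. It passed the filter only through the group where it was highest, so the list median is a description and no support for a change. The median log2 fold change of the 4 was 0.33 at 1 day and 1.24 at 6 weeks. With single libraries left out it ran from 0.12 (without IRR_6w replicate 1, 2 or 3, when only 3 of these genes passed the filter) to 0.56 (without Control_1d replicate 3) at 1 day, and from 0.64 (without IRR_6w replicate 1, over 3 genes) to 1.61 (without Control_6w replicate 4) at 6 weeks. In IRR_6w replicate 1 F5, the cofactor of factor X, had 22.4 CPM against 1.04 to 5.34 CPM in the other IRR_6w mice. Only F13a1, a subunit of the factor that crosslinks fibrin, had an unadjusted p under 0.05, at 6 weeks (118 to 173 CPM in IRR_6w against 75.5 to 122 CPM in Control_6w). In the list of 10 anticoagulants and related genes 6 were tested and 0 were called by edgeR, while DESeq2 on all libraries called Gas6 at 1 day and Pros1 at 6 weeks, with 2 higher at 1 day and 3 at 6 weeks at an unadjusted p under 0.05. Gas6, a ligand of TAM receptors that is related in sequence to protein S and is not known as an anticoagulant, measured 614, 401 and 944 CPM in IRR_1d against 103, 131 and 183 CPM in Control_1d. This was a log2 fold change of 2.23 without overlap (SE 0.394, with an edgeR adjusted p of 0.168), and 5 of 25 alternatives called it, edgeR without Control_6w replicate 3 among them, with adjusted p from 1.34e-05 to 1. Pros1, which encodes protein S, the cofactor of activated protein C, was 143 ± 35.2 against 70.8 ± 27.7 CPM at 1 day (SD, n = 3, edgeR adjusted p = 1) and 109 ± 15.6 against 47.9 ± 15.2 CPM at 6 weeks (SD, n = 4, adjusted p = 0.124). Both times the groups did not overlap. Control_6w replicate 3 had the least Pros1, 27.4 CPM against 45.4 to 59.5 CPM in the other 6 week controls.

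All 4 thrombin receptors were tested and 0 were called, and at 6 weeks F2r, the main such receptor of vascular cells, was 87.0 ± 12.7 against 53.5 ± 18.7 CPM (SD, n = 4) without overlap, with a log2 fold change of 0.70 (SE 0.321, with an edgeR adjusted p of 0.551). Control_6w replicate 3 had 27.4 CPM of F2r, against 52.4 to 67.3 CPM in the other controls, and the fold change without it is not given here. Of 19 nitric oxide and prostanoid vasoregulators 18 were tested and 0 were called. At 1 day Nostrin, which moves the endothelial nitric oxide synthase away from the membrane, was 7.44 ± 1.59 against 18.7 ± 4.64 CPM, and Nos2, the inducible synthase, was 8.45 ± 4.50 against 21.3 ± 10.8 CPM (SD, n = 3). Each had a log2 fold change of -1.33 without overlap (edgeR adjusted p = 1). At 6 weeks Edn1, which encodes the vasoconstrictor endothelin, measured 26.5, 14, 49.4 and 14 CPM in IRR_6w against 10.9, 7.79, 3.24 and 9.28 CPM in Control_6w, a log2 fold change of 1.74 (SE 0.852, adjusted p = 0.597). For the thrombin receptors and the vasoregulators DESeq2 also called 0 genes. At an unadjusted p under 0.05 the thrombin receptors held 0 genes at 1 day and 1 at 6 weeks, and the vasoregulators 1 higher and 2 lower at 1 day and 2 higher at 6 weeks. Mmrn2, an endothelial matrix protein, was the endothelial marker that was higher without overlap at both times, with 139 ± 33.2 against 59.6 ± 19.0 CPM (SD, n = 3) and 157 ± 13.6 against 75.1 ± 32.1 CPM (SD, n = 4). Of the 6 week controls, replicate 3 had 27.5 CPM of Mmrn2 and the others 83.8 to 94.9 CPM. Kdr, the main receptor of vascular endothelial growth factor, was 250 ± 82.3 against 489 ± 79.2 CPM at 1 day (SD, n = 3) without overlap (edgeR log2 fold change -0.97, adjusted p = 1).

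**Figure D5:**
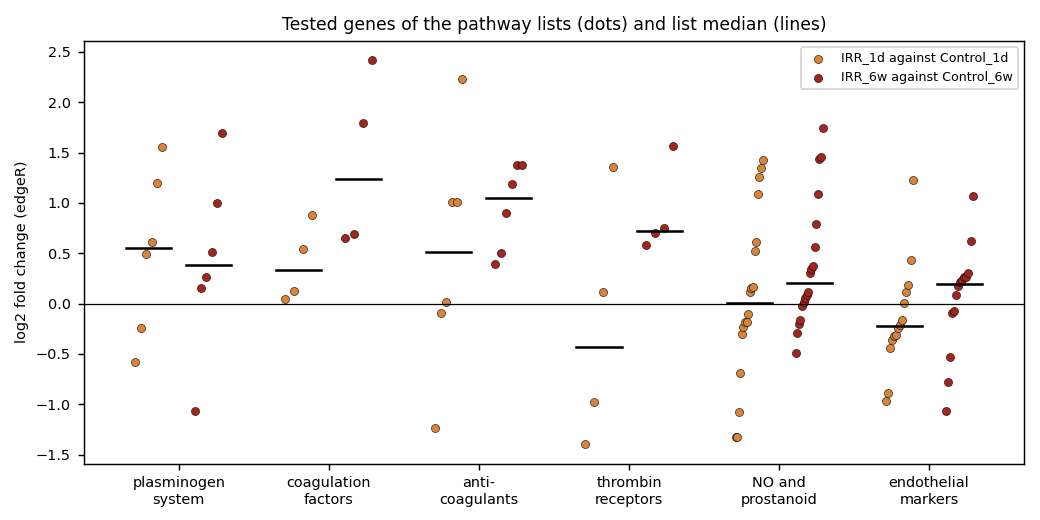
Log2 fold change of irradiated against control mice (vertical axis) for the tested genes of 6 lists (dots, ordered by value within each list) with list medians (lines), at 1 day and at 6 weeks. Serpine2 is the highest dot of the plasminogen system at both times (1.56 and 1.69) and Gas6, a receptor ligand listed with the anticoagulants, the highest of that list at 1 day (2.23).

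For each gene the partners below are those with the highest Pearson's r of log2 CPM over the 14 libraries, among the 16034 genes tested. The highest of so many r values are large by selection alone. These libraries also share groups, depth and tissue makeup, so r is a description. Plau was closest to Ly6a (r = 0.951), which encodes a surface protein induced by interferon, and to Ifi44 (0.913), an interferon-induced gene. Vwf was close to Gas2l1 (0.938). The partners of Procr were Lgals3 (0.963), which encodes galectin, and Tspo (0.955). Plat lay nearest to Cttnbp2nl (0.918) and Cyfip1 (0.913), Plaur to Hexa (0.895) and Klrb1b (0.872), and F3 to Ddit4l (0.878) and Sdc1 (0.856). Thbd was most like Spns2 (0.908) and Crispld2 (0.892), Tfpi most like Akap6 (0.946) and Prox1 (0.943), and Nos3 most like Klc1 (0.939) and Srf (0.933). None of the 9 was among the closest partners of another, places that few of the 16034 genes can hold. The highest r between members was 0.618, for Plat and Plau.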

How the data were processed

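Per the labels and the methods of the study, the authors checked reads with FastQC 0.11.8, trimmed them with Trim Galore 0.6.1, aligned them to mm10 with STAR 2.5.0a and counted them per gene with HTSeq. The deposited values are whole-number counts per gene and library, not normalized, beside gene coordinates and lengths. The deposited lengths of the 9 genes equal their merged exon bases in GENCODE M21. Annotation release, strand setting and counting mode are not given in the sources used here.

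Counts were filtered with filterByExpr, scaled by TMM and fitted in 1 model of the 4 groups with edgeR 4.0.16 in R 4.3.3 (quasi-likelihood test, Benjamini-Hochberg adjustment over 16034 genes). A gene was called at a fold change above 2 or below 0.5 and an adjusted p under 0.05. CPM is the count over the TMM-scaled library total, and FPKM divides it by the deposited length. SEs were derived from the F statistic. Alternatives used DESeq2 1.42.0, limma-voom (limma 3.58.1), other scaling, filters, call rules and left-out libraries. By counting alone 0 counts allow up to 3 (95% confidence), and limits and intervals of this kind cover counting error only. The count model was tested on simulated data. Of 200 genes set there to a log2 fold of 2, it called 23.0% for IRR_1d against Control_1d and 38.5% for IRR_6w against Control_6w. Among the genes left as they were, it called 2 in each comparison.

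The 9 genes, the other lists and the marker lists were chosen with earlier results of these data known. Beside the 9 genes, the text names some of the list genes that were called. For irradiated against control mice it names up to 3 genes per list with the smallest p among those whose groups did not overlap. For likeness it names the 2 closest genes. Not named are 1 testis germ cell marker, called lower by edgeR at 6 weeks, and the fibroblast marker called by DESeq2. F13a1, F5, F8, F10 and genes under the filter were named after their values were seen. Libraries of the same group were compared for duplicates and none was found. Some genes are not reported here.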

Additional observations from a re-analysis of the deposited data

Results flagged for a closer look

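In groups of 4 mice, each of the 9 genes was checked for a library far from the others, 18 groups in all, of which chance flags about 1 in 20. F3 in Control_6w was the one that stood out: replicate 1 had 25.7 CPM and the other 3 controls 13.8 to 14.3 CPM, a gap of 0.963 of the range. Without that library the 6 week log2 fold change of F3 was 0.26 in place of 0.013.

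Thbd went opposite ways at the 2 time points, with a log2 fold change of 0.29 at 1 day and -0.24 at 6 weeks. All 3 IRR_1d mice were above the Control_1d mean and all 4 IRR_6w mice were below the Control_6w mean. The change in effect was -0.54 (edgeR interaction, adjusted p = 0.99, from 0.548 to 1 over its alternatives). With single libraries left out it ran from -0.83 to -0.29.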

How the results depend on the processing

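Of 1107 log2 fold changes of the 9 genes under the alternatives, 1027 kept their direction and their side of the threshold, 78 changed direction and 2 passed the threshold, both of them Plau at 6 weeks. Of 515 whose reported size was above 0.5, 3 changed direction. For the change in effect no fit of the compared groups alone was made, since it needs all 4 groups.

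The number of the 9 genes called at 6 weeks was 1 with DESeq2 on all libraries and 0 to 1 with single libraries left out (1 without IRR_6w replicate 1). With fold limits and an unadjusted p it was 2 at 1 day, 2 at 6 weeks and 1 between irradiated groups.

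Scaling by library totals moved the log2 fold change of the median gene, by 0.075 (1 day), 0.233 (6 weeks), 0.159 (controls), 0.317 (irradiated groups) and 0.155 (change in effect), and turned Thbd to 0.047 at 6 weeks and 0.22 between irradiated groups. The controls gave F3 at -0.0069 with median-of-ratios scaling, -0.010 and -0.00032 with DESeq2 on all libraries and on the compared groups, -0.067 with limma-voom and -0.0066 with edgeR on the compared groups. Without the filter F3 was -0.0070 at 6 weeks and Nos3 -0.0016 in the change in effect. limma-voom turned Procr to -1.35 and Nos3 to -0.17 in that change.

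With Control_6w replicate 3 and IRR_6w replicate 1 left out, values at 6 weeks were -0.069 for Vwf, -0.20 for F3 and -0.29 for Nos3; between controls 0.033 for Plat and -0.095 for Procr; Procr was -0.34 between irradiated groups and -0.24 in the change in effect, with Nos3 at -0.31. With Control_1d replicate 1 and IRR_6w replicate 3 left out, Plat was 0.11 and Nos3 -0.41 at 1 day, F3 -0.021 at 6 weeks, Plat 0.058, Procr -0.11 and Nos3 -0.061 between controls, Tfpi -0.092 between irradiated groups and Plau -0.13 in the change in effect. Leaving out IRR_6w replicate 1 and IRR_1d replicate 3, chosen after seeing the data, gave Nos3 -0.090 at 1 day and -0.010 at 6 weeks and F3 -0.12 at 6 weeks.

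With 1 library left out at a time, values that changed direction ranged at 1 day from -0.68 to 0.11 (Plat) and -0.41 to 0.53 (Nos3), at 6 weeks from -0.54 to 0.022 (Thbd), -0.12 to 0.26 (F3) and -0.25 to 0.24 (Nos3), between controls from -0.16 to 0.43 (Vwf), -0.50 to 0.058 (Plat), -0.099 to 0.35 (Plau), -0.11 to 1.08 (Procr), -0.25 to 0.18 (F3) and -0.061 to 0.87 (Nos3), between irradiated groups from -1.03 to 0.060 (Vwf), -0.34 to 1.60 (Procr) and -0.12 to 0.22 (Tfpi), and in the change in effect from -0.017 to 0.62 (Plau), -0.82 to 1.12 (Procr) and -0.49 to 0.45 (Nos3). The causes were not tested.

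Irradiated and control libraries of the same replicate number correlated in their deviations by -0.159 to 0.040 at 1 day and -0.364 to 0.371 at 6 weeks. Those of different numbers correlated by -0.114 to 0.257 and -0.19 to 0.427. With 3 and 4 same-numbered pairs, these values cannot settle whether the numbers pair the mice, and the main model had no replicate block. With the replicate number as a block, 0 of 9 genes were called in every comparison, all genes called numbered 1 at 1 day against 4 without the block and 15 at 6 weeks against 41, and Nos3 in the change in effect was -0.039. Over all alternatives the number of all genes called ran from 0 to 59 at 1 day, 0 to 358 at 6 weeks, 0 to 40 between controls, 3 to 376 between irradiated groups and 0 to 42 for the change in effect. Depth limits Procr and Plaur most, with 0 to 181 and 12 to 222 counts a library.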
